A study of Mus musculus with 8 samples.

Results

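Cxcr7, Cxcr4 and Cxcl12 are the 3 genes of the Cxcl12 chemokine axis, and they were taken by symbol from the 26608 gene symbols that the deposited tables list. Cxcr7 is the older symbol of Ackr3. They were proposed with their levels in these same libraries already known, because Cxcr7 had been among the genes most reduced in protrusions and the other members are its ligand and the second receptor of that ligand. Their levels and differences between groups are therefore given as a description, with no test.

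Gene expression was measured by SAGE, serial analysis of gene expression, in neural tube tissue cut by laser from cryosections of FVB mouse embryos at gestation day 8.5. All embryos of both groups came from diabetic dams; the sources used here do not say how the diabetes arose. Open neural tube (4 libraries, numbered 9, 10, 13 and 14) was taken just in front of closure site 1, where the neural folds first meet. Protrusions (4 libraries) are malformed tissue growing out of the neural plate where it is open. Going by morphology, protrusion 1 was separated from the plate and protrusions 2, 3 and 4 were attached to it. Protrusions 1 and 2 have titles that differ only in the last digit, and the labels do not say that libraries come from separate embryos, so the spread between libraries may be partly technical. No group from non-diabetic dams is analysed here, and if the 2 groups differ in position along the body axis, that cannot be told apart from their shape.

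Cxcl12 is a secreted chemokine that guides moving cells along its gradient. Its signalling receptor is Cxcr4, a membrane receptor that works through inhibitory G proteins to the actin cytoskeleton and to survival kinases. Cxcr7 binds the same ligand, does not signal through G proteins in the classical way, recruits arrestins, and carries Cxcl12 into the cell for degradation, which shapes the gradient that Cxcr4 reads. In the embryo the axis is known for the migration of germ cells, neurons and vessel-forming cells.

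In SAGE each transcript is represented by a short tag next to a cutting site towards its 3′ end. The tags that stand for these genes are shown because each value below rests on them. They were read here from the GENCODE M21 basic transcripts (GRCm38) as the CATG site closest to the 3′ end with the bases that follow, 27 bases in all and written 5′ to 3′. Capitals mark the CATG site. The site and the tag length are those known for this kind of SAGE kit and are not stated in the labels.
Cxcr7: CATGtcagctgcagggcaccaatatcc
Cxcr4: CATGtgaatgagtgtctaggcaggacc
Cxcl12, 2 of 3 coding transcripts: CATGggtgattatctcagtggtgtcac
Cxcl12, 1 of 3 coding transcripts: CATGctgtaaacctcctaccgtatgtg

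Each of these sites lay in the 3′ UTR, 82 bases from the transcript end for Cxcr7 and 444 bases for Cxcr4. In Cxcl12 the shared tag began 498 or 499 bases from the end and the other tag 65 bases from it. None of the 4 tags occurred in a transcript of another gene in that annotation (0 other genes each). The Cxcl12 transcripts thus have 2 distinct tags, and the deposited table gives a single value for the gene. How the authors assigned tags to genes is not stated in the sources used here. A value of 0 for a gene therefore need not mean that it was not transcribed.

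The libraries held 5668054 to 16655583 reads. Levels are given as CPM, the usual scaling of a gene's reads to the total of its library, and since each transcript yields 1 tag they need no scaling by length. The level that 3 reads stand for, used as the floor, was 0.18 to 0.529 CPM. Reads are not independent molecules. Of 3280 genes that averaged 5 to 20 CPM, the share at 0 was 4.85% to 18.8% per open neural tube and 0.0915% to 0.549% per protrusion. A library that drew 170964 to 343184 independent tags (open neural tube) or 667995 to 960720 (protrusions) would show those shares of zeros. This takes each gene to stand at its mean over all 8 libraries in each of them. Genes truly absent from a tissue would make the estimate too low for that tissue. On that estimate a single tag stands for 2.91 to 5.85 CPM in open neural tube and 1.04 to 1.5 CPM in protrusions, so low levels of Cxcr4 and Cxcl12 in open neural tube could not be measured well. Intervals and floors given here cover counting error of reads only.

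The first comparison asked how protrusions differ from normally shaped open neural plate. Cxcr7, the scavenging receptor, was the abundant gene of the axis and was lower in every protrusion. It stood at 208 CPM in open neural tube 9, 107 CPM in open neural tube 10, 41.6 CPM in open neural tube 13 and 91.1 CPM in open neural tube 14. In the protrusions it stood at 29.0 CPM in the separated protrusion 1, 15.9 CPM in protrusion 2, 19.6 CPM in protrusion 3 and 15.9 CPM in protrusion 4. The groups did not overlap: the lowest open neural tube value was 2.12 times the highest attached protrusion and 1.44 times the separated one. Fewer cells that carry the transcript and less of it per cell cannot be told apart in such tissue.

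The group mean of Cxcr7 was 112 ± 69.7 CPM in open neural tube and 20.1 ± 6.17 CPM in protrusions (SD, n = 4 each). The fitted log2 difference was −2.57 ± 0.46 (SE), which is 5.95-fold. Of the 3 members only Cxcr7 had groups that did not overlap, with lower values in protrusions, where 4.55% of the 11036 genes tested did so. It also passed the adjusted threshold, as 0.326% of the genes tested did in that direction. Cxcr7 was chosen by these values, so nothing is read from either count. Of the 6198 tested genes whose average log2 CPM reached 4, 30 had a lower fitted value than Cxcr7.

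**Figure D1:**
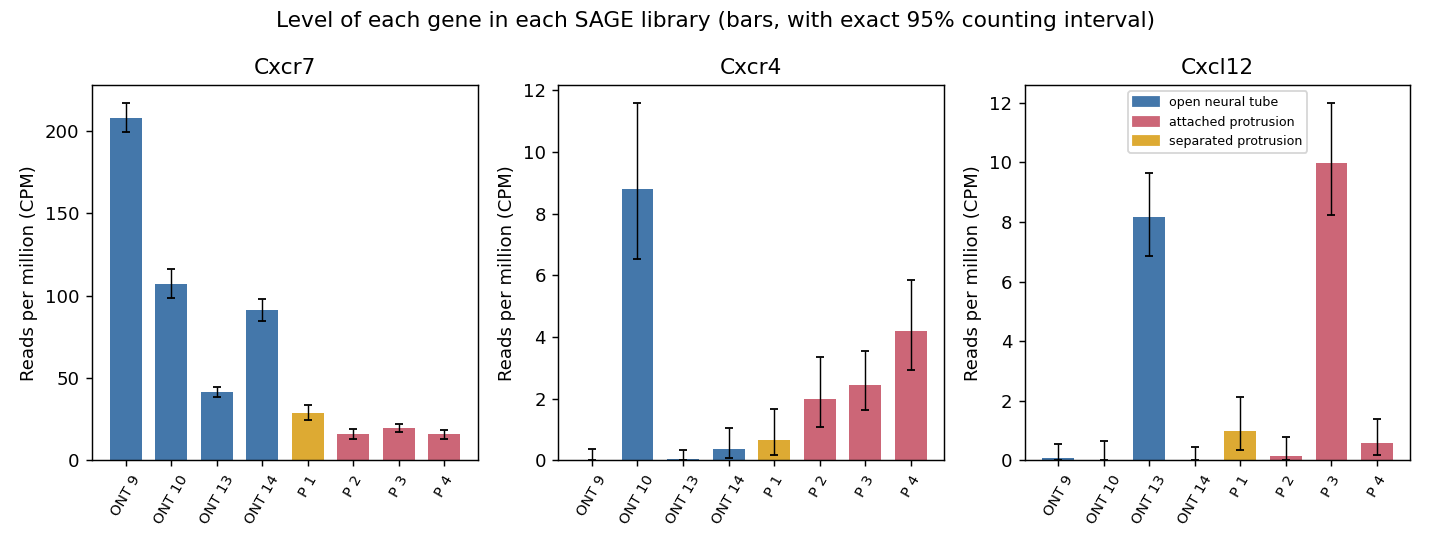
Level of Cxcr7, Cxcr4 and Cxcl12 (CPM, linear axes from 0) in each library; ONT is open neural tube, P is protrusion, and bars carry exact 95% binomial intervals for reads. Cxcr7 is lower in all 4 protrusions (15.9 to 29.0 CPM) than in any open neural tube (41.6 to 208 CPM), whereas 1 or 2 libraries hold most of the Cxcr4 and Cxcl12 reads.

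By morphology label, the attached protrusions were close to each other for Cxcr7, at 17.1 ± 2.14 CPM (SD, n = 3), a coefficient of variation of 12.5% against 62.3% among open neural tubes. The separated protrusion, at 29.0 CPM (exact 95% interval 24.8 to 33.6), lay above all 3 attached ones and below all open neural tubes. With 1 library, the separated class allows no test. The fitted log2 difference of attached protrusions from open neural tube was −2.81 ± 0.51 (SE), and groups that did not overlap in this direction were found for 6.94% of the 11466 genes tested in that fit. Both comparisons share the 4 open neural tubes.

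By the percentage of detected genes that lay below it in a library, the groups overlapped. Cxcr7 lay above 68.5% to 91.7% of the detected genes in the open neural tubes, above 69.2% in the separated protrusion and above 57.4% to 62.6% in the attached ones. On this percentage the separated protrusion lay just above open neural tube 13, whereas its CPM was lower. More genes were detected in protrusions (14575 to 16330) than in open neural tubes (9920 to 11557), which raises the percentage for a given rank. Counted from the top gene, Cxcr7 ranked 921 to 3639 in the open neural tubes. It ranked 4474 in the separated protrusion and 6092 to 6231 in the attached ones, so these ranks did not overlap. On the estimate of independent tags, Cxcr7 rested on 14.3 to 64.4 tags in the open neural tubes and on 11.3 to 19.3 in the protrusions.

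Neural plate markers were read in the same libraries. All 12 neural plate markers were detected in at least 1 open neural tube and in at least 1 attached protrusion, and 1 of them, Sox3, was at 0 in the separated protrusion. Their summed level was 2910 to 3680 CPM in open neural tube, 2690 CPM in the separated protrusion and 1270 to 1830 CPM in the attached ones. Markers of the primitive streak and presomitic mesoderm, the tissue from which the trunk is laid down, moved the other way. They summed to 19.8 to 84.2 CPM in open neural tube, 282 CPM in the separated protrusion and 1380 to 1610 CPM in the attached ones. Of these 11 streak markers, 5 were at 0 in every open neural tube.

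Cxcr7 was also set against the neural plate markers of its own library. For each 1000 CPM of summed markers there were 14.3 to 63.7 CPM of Cxcr7 in open neural tube, 10.8 in the separated protrusion and 10.7 to 12.5 in the attached ones. On this scale the gap between the groups was narrow and the groups still did not overlap. Sox11, a transcription factor of neural progenitors, made up 52.0% to 94.3% of that sum. Without it the sums were 1440, 1050, 166 and 1070 CPM in open neural tubes 9, 10, 13 and 14 and 1290, 427, 798 and 690 CPM in protrusions 1 to 4. These sums overlapped between the groups, and open neural tube 13 had the lowest of all 8. Its Cxcr7, at 41.6 CPM, was the lowest of the open neural tubes and above that of every protrusion. For each 1000 CPM of the markers without Sox11 there were 85.1 to 251 CPM of Cxcr7 in open neural tube and 22.5 to 37.3 CPM in protrusions. The part that tissue content has in the Cxcr7 difference was not tested.

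**Figure D2:**
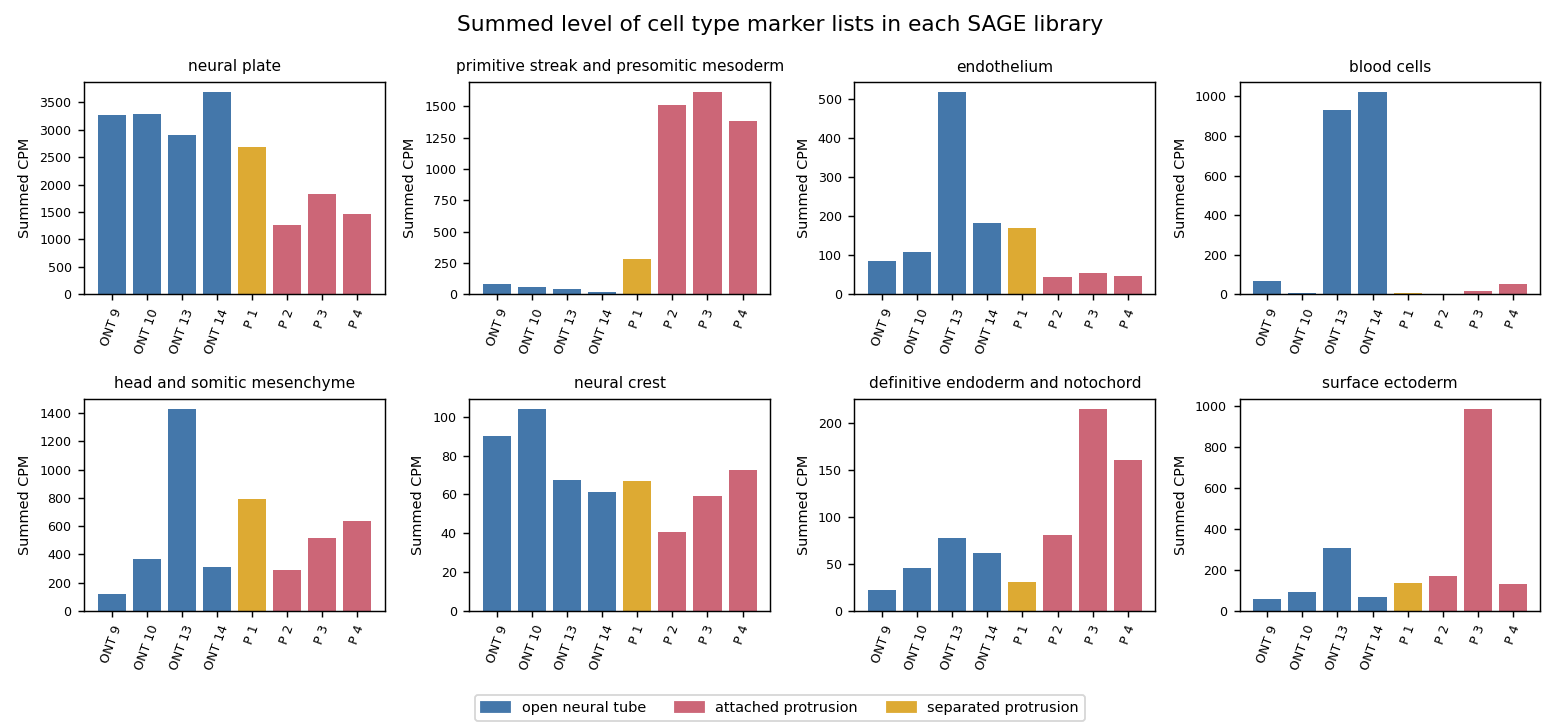
Summed CPM of 8 marker lists (linear axes from 0, one panel each) in each library; ONT is open neural tube and P is protrusion. Neural plate markers are lower and streak markers higher in attached protrusions, and open neural tube 13 holds the most endothelial and mesenchymal signal (516 and 1430 CPM).

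Cxcr4, the signalling receptor, was near the limit of detection. Open neural tube 9 had 0 reads, with a floor of 0.296 CPM at 3 reads and an exact 95% interval up to 0.364 CPM. A single independent tag stands for 3.23 CPM there on the estimate above. Open neural tube 13 had 1 read (0.060 CPM) and open neural tube 14 had 3 reads (0.358 CPM). Open neural tube 10 had 50 reads, 8.82 CPM, and so held 95.5% of the group's summed CPM. The separated protrusion had 4 reads (0.654 CPM), and the attached protrusions 2, 3 and 4 had 2.01, 2.45 and 4.21 CPM. The 4 protrusions were thus above 3 open neural tubes and below the fourth, and the groups overlapped.

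The means of Cxcr4 were 2.31 ± 4.34 CPM in open neural tube and 2.33 ± 1.47 CPM in protrusions (SD, n = 4 each). The fitted log2 difference was 0.01 ± 1.65 (SE), an error too wide to tell no change from a several-fold one. Without open neural tube 10 it was 3.98 ± 1.45, so that library decided the value. The 8.82 CPM of that library correspond to 1.51 independent tags on the estimate above, the other open neural tubes to 0 to 0.0679 tags, and the attached protrusions to 1.42 to 3.84. Limma-voom, which weighs values on a log scale, gave 2.53 ± 1.58.

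**Figure D3:**
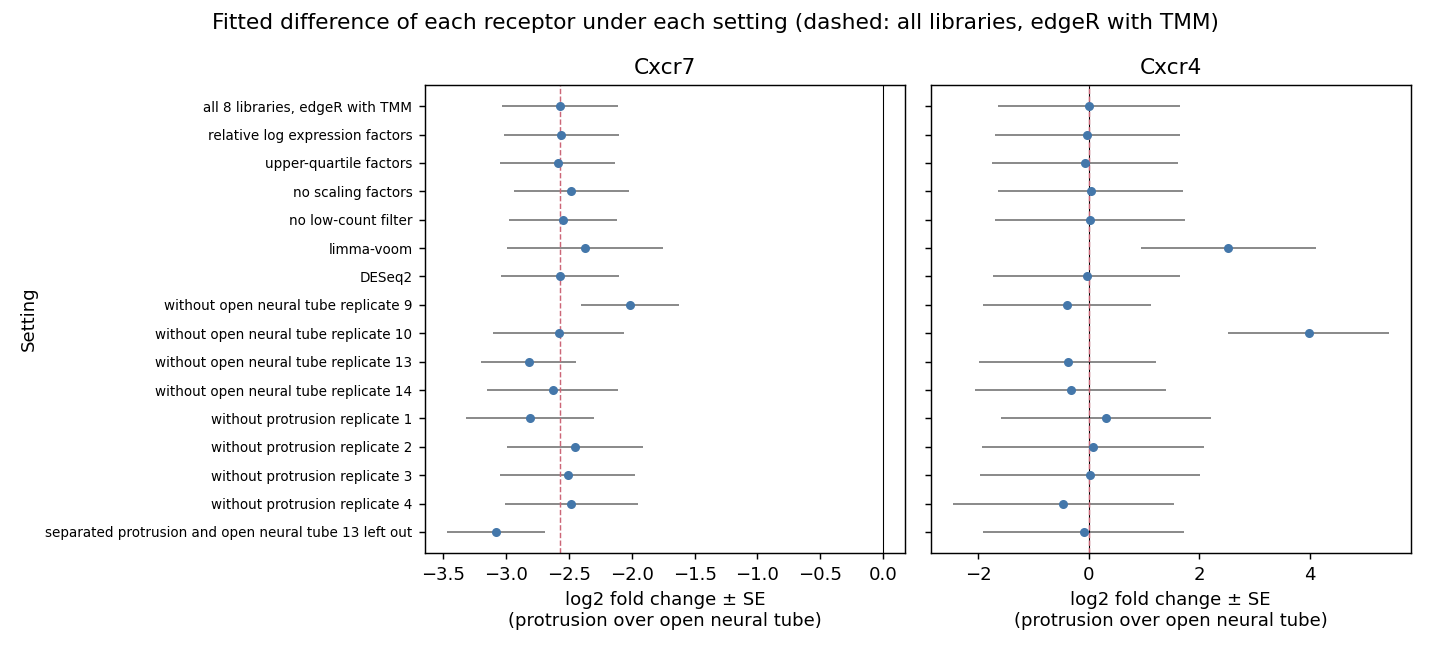
Fitted log2 difference between protrusion and open neural tube (points, with SE as lines) of Cxcr7 and Cxcr4 under each setting; the dashed line marks the value from all 8 libraries with edgeR and TMM. Cxcr7 stays between −3.08 and −2.01, whereas Cxcr4 moves from 0.01 to 3.98 without open neural tube 10.

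Cxcl12, the ligand, was seen mainly in 1 library of each group. Open neural tube 13 had 136 reads (8.17 CPM) and protrusion 3 had 114 reads (9.97 CPM). Open neural tubes 10 and 14 had 0 reads, with exact 95% intervals up to 0.651 and 0.44 CPM, and a single independent tag stands for 5.85 and 5.28 CPM in them. Open neural tube 9 had 1 read (0.0987 CPM). Protrusions 1, 2 and 4 had 6, 1 and 5 reads, that is 0.982, 0.143 and 0.601 CPM. High and low libraries occurred in both groups, and the groups overlapped.

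The means of Cxcl12 were 2.07 ± 4.07 CPM in open neural tube and 2.92 ± 4.71 CPM in protrusions (SD, n = 4 each). Open neural tube 13 held 98.8% of its group's summed CPM and protrusion 3 held 85.2%. Cxcl12 did not pass the filter on low counts in either comparison and so has no fitted difference in the main fits. Without open neural tube 13 the open neural tube mean was 0.0329 CPM, and without protrusion 3 the protrusion mean was 0.575 CPM.

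The libraries with most Cxcl12 were also read for markers of other tissues. Open neural tube 13 had the highest endothelial sum (516 CPM against 85.0 to 183 CPM in the other open neural tubes) and the highest sum of head and somitic mesenchyme, 1430 CPM against 121 to 371 CPM. Of the endothelial markers, Cdh5 of cell junctions stood at 29.4 CPM and the receptor Tek at 106 CPM there, whereas the receptors Kdr and Flt1 and the factor Erg were at 0 in all 4 open neural tubes. Of the mesenchymal markers, Pdgfra stood at 475 CPM there. In protrusions the mesenchymal sum was 519 CPM in protrusion 3, against 792, 288 and 636 CPM in protrusions 1, 2 and 4. Protrusion 3 had the highest sum of surface ectoderm markers, 984 CPM against 132 to 168 CPM in the other protrusions, of which the epithelial cadherin Cdh1 made up 871 CPM. It also had the highest sum of endoderm and notochord markers (215 CPM), but its endothelial sum was 53.9 CPM, close to 45.2 and 47.2 CPM in the other attached protrusions. Blood cell markers summed to 930 CPM in open neural tube 13 and 1020 CPM in open neural tube 14. Cxcl12 had 0 reads in open neural tube 14, where a single independent tag stands for 5.28 CPM. The part of these tissues in the Cxcl12 values was not tested.

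Within the axis, Cxcr7 gave most reads in every library. It made up 2104 of the 2105 reads of the 3 genes in open neural tube 9, and 92.4%, 83.5% and 99.6% of them in open neural tubes 10, 13 and 14. In protrusions 1 to 4 its share was 94.7%, 88.1%, 61.2% and 76.7%. The exact 95% intervals of the last 2 were 56.0 to 66.2% and 69.7 to 82.8%. The lower share in protrusion 3 came with its Cxcl12 reads (31.1%), and that in protrusion 4 with its Cxcr4 reads (20.3%). Cxcr7 reads per Cxcr4 read were 12.1 in open neural tube 10, 44.2 in the separated protrusion, and 7.93, 8.0 and 3.77 in the attached ones. The 44.2 rests on 4 Cxcr4 reads, which correspond to 0.437 independent tags on the estimate above. The 12.1 rests on 1.51 such tags and those of the attached protrusions on 1.42 to 3.84, so these ratios are uncertain. Open neural tubes 9, 13 and 14, with 0, 1 and 3 Cxcr4 reads, are given no ratio.

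The genes whose pattern over the 8 libraries was most like that of each member were found by Pearson's r of log2 CPM among abundant tested genes. For Cxcr7 they were Nanp (r = 0.983), a phosphatase of sialic acid synthesis, the ATPase Ola1 (0.982), 1810029B16Rik (0.978), the dystrobrevin Dtnb and the monoamine oxidase Maob (0.970 each). All 5 were lower in protrusions on average. Maob was at 154, 135, 25.3 and 128 CPM in open neural tubes 9, 10, 13 and 14 and at 5.02 to 24.2 CPM in protrusions, so it shared the lower value of open neural tube 13. Nanp ranged less, from 23.0 ± 6.26 CPM to 13.4 ± 2.23 CPM (SD, n = 4 each). Spearman's rho of the 5 was 0.905 to 0.976. These r values were picked as the highest of 6197 genes and the libraries fall into 2 groups, so they carry no p-value.

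For Cxcr4 the most alike genes were Brpf3 (r = 0.956), a chromatin reader, Tpd52l2 (0.938), E230008O15Rik (0.934), the ribosome biogenesis factor Rcl1 (0.918) and the histone demethylase Kdm6b (0.914). Each had its highest open neural tube value in library 10, for example Brpf3 at 63.2 CPM against 10.9 to 19.6 CPM in the other open neural tubes. For Cxcl12 they were Tax1bp1 (0.942), Cnnm3 (0.934), the small GTPase Arl4c (0.923), the endosomal sorting protein Snx27 (0.897) and Amdhd2 (0.887). Arl4c stood at 104 CPM in open neural tube 13 and 114 CPM in protrusion 3, the libraries rich in Cxcl12, and at 32.5 to 93.3 CPM elsewhere. Spearman's rho was 0.905 to 0.976 for the genes like Cxcr4 and 0.778 to 0.970 for those like Cxcl12. Cxcr4 and Cxcl12 were at or under the floor in 3 of the 4 open neural tubes, and all genes of a library share its depth.

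**Figure D4:**
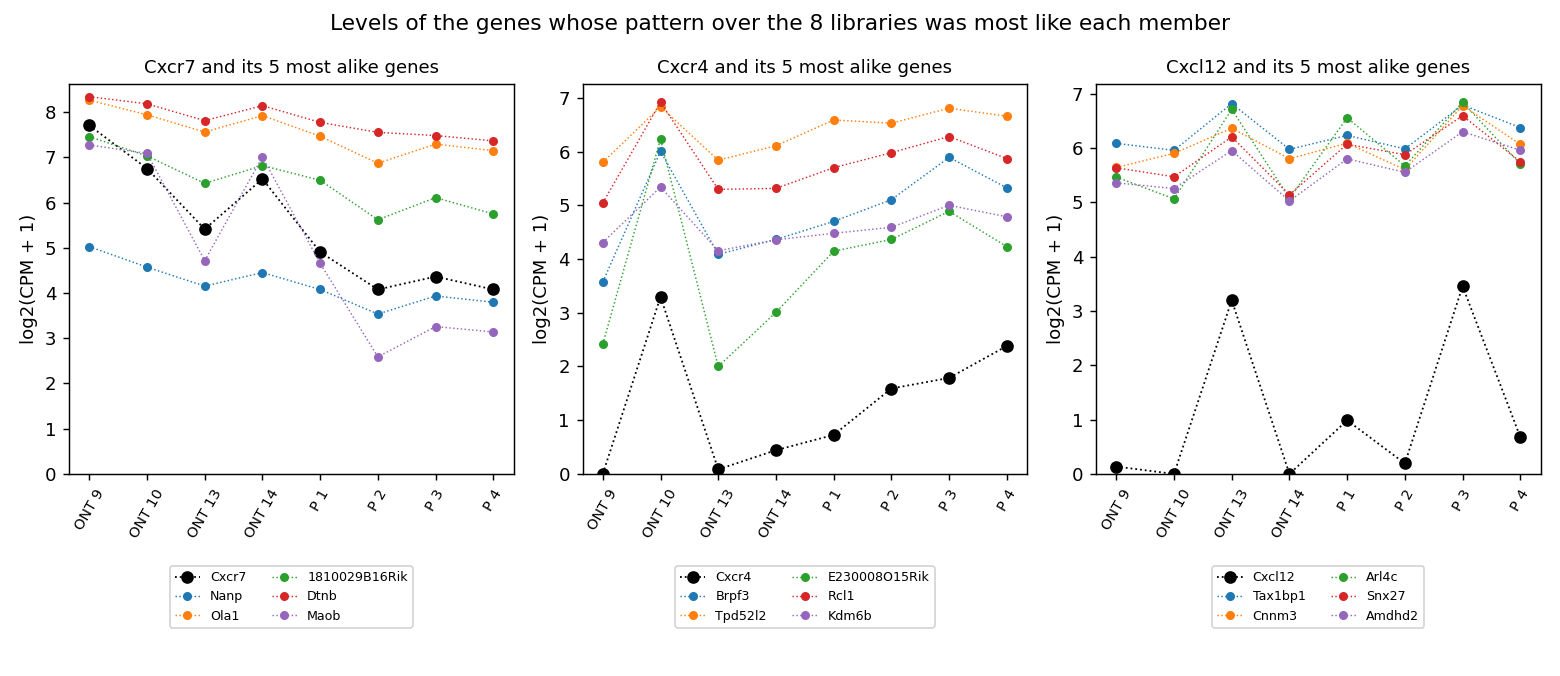
Level of each member (black) and its 5 most alike genes (colours) as log2(CPM + 1) in each library; ONT is open neural tube, P is protrusion, and dotted lines only guide the eye. The genes like Cxcr7 are lower in protrusions, those like Cxcr4 peak in open neural tube 10, and those like Cxcl12 peak in open neural tube 13 and protrusion 3.

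The other genes of the axis were taken as 9 lists of 201 genes in all, from further ligands and receptors to signal carriers and the matrix that holds Cxcl12. In all protrusions against open neural tube, 120 could be tested with edgeR's quasi-likelihood test, 0 rose and 1 fell, where 0.607% of all genes tested passed in either direction, 0.281% as higher. At an unadjusted p under 0.05, 9 lay above 0 and 14 below, where 7.02% and 8.33% of all genes tested did. DESeq2 called 3 higher and 6 lower, where 3.79% and 3.6% of all genes it tested were called, and limma-voom 0 and 3, where 2.0% and 1.35% were. Their median log2 fold change was 0.02, against 0.08 over all genes tested, and 61 lay above 0, where 53.7% of all genes tested did. Groups did not overlap for 12 with higher values and 4 with lower values in protrusions, where 8.84% and 4.55% of all genes tested did so. In attached protrusions against open neural tube, 126 could be tested, 1 rose and 2 fell, where 1.5% of all genes tested passed, 0.759% as higher and 0.741% as lower. At an unadjusted p under 0.05, 8 lay above 0 and 11 below, where 9.16% and 8.52% of all genes tested did. DESeq2 called 4 higher and 6 lower, where 5.25% and 4.74% of all genes it tested were called, and limma-voom 5 and 4, where 5.57% and 2.01% were. The median there was 0.04, against 0.09, and 65 lay above 0, where 54.0% of all genes tested did. Groups did not overlap for 22 with higher values and 6 with lower values, where 17.9% and 6.94% of all genes tested did so.

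Signal carriers downstream of Cxcr4 held 1 gene that fell in both comparisons and 1 that rose in attached protrusions. Ptpn11, the SHP2 phosphatase that passes receptor signals to the ERK pathway, stood at 240, 317, 257 and 314 CPM in open neural tubes 9, 10, 13 and 14 and at 127, 169, 164 and 124 CPM in protrusions 1 to 4, with no overlap. It fell by 1.04 ± 0.18 on the log2 scale over all protrusions (edgeR adjusted p = 0.041) and by 0.98 ± 0.19 in the attached ones (adjusted p = 0.0492). Akt2, a survival kinase, stood at 59.3 to 95.9 CPM in open neural tube, 119 CPM in the separated protrusion and 192 to 286 CPM in the attached ones. It rose by 1.37 ± 0.26 in attached protrusions (edgeR adjusted p = 0.0449), and its value over all protrusions was 1.18 ± 0.29 (adjusted p = 0.0824). Of 34 such carriers tested over all protrusions, 19 had a fitted value above 0 (median 0.09), and of 36 in the attached comparison, 21 (median 0.12). At an unadjusted p under 0.05 in edgeR, 3 lay above 0 and 3 below over all protrusions, and 2 and 2 in attached ones. DESeq2 called 2 higher and 1 lower in each comparison, and limma-voom 0 and 1 over all protrusions and 4 and 1 in attached ones. The calls of Ptpn11 (edgeR adjusted p at most 0.186) and Akt2 (at most 0.144) each ended when any single open neural tube or any single attached protrusion was left out. That of Ptpn11 in attached protrusions also ended with no scaling factors and with no filter on low counts.

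Among proteases that cut Cxcl12, Dpp4, a membrane peptidase that removes the first residues of the chemokine, fell in attached protrusions. It stood at 49.7, 66.7, 12.2 and 59.7 CPM in open neural tubes 9, 10, 13 and 14, while the separated protrusion had 10.1 CPM and protrusions 2, 3 and 4 had 0.143, 1.14 and 2.28 CPM. Open neural tube 13 was again the lowest of its group, as for Cxcr7. The log2 fold change was −5.37 ± 0.92 in attached protrusions (edgeR adjusted p = 0.0345) and −3.86 ± 1.01 over all of them (adjusted p = 0.0849). The call ended with limma-voom, without any single attached protrusion and without open neural tube 9, 10 or 14 (highest adjusted p 0.154). Dpp4 was 1 of 6 proteases tested in attached protrusions, of which 1 had a fitted value above 0 (median −1.22). In edgeR 0 of these proteases lay above 0 and 2 below at an unadjusted p under 0.05, DESeq2 called 1 lower and limma-voom 0.

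Arrestins, receptor kinases and sorting proteins, which take up Cxcr7 and Cxcr4 from the membrane, held no gene past the threshold in edgeR. All 24 were detected and 22 tested in each comparison, with 0 calls and, at an unadjusted p under 0.05, 2 above 0 and 2 below in each. DESeq2 and limma-voom each called 1 lower in each comparison. The arrestins Arrb1 (open neural tube 8.12 to 20.7 CPM, protrusions 7.03 to 38.7 CPM) and Arrb2 (8.59 to 37.6 and 15.1 to 48.9 CPM) overlapped between groups, and both were chosen after their values were seen. Rab11a, a GTPase of receptor recycling, was the most abundant, at 663 to 1440 CPM in open neural tube and 259 to 582 CPM in protrusions (log2 −1.45 ± 0.31, edgeR adjusted p = 0.0672). Clta, a clathrin light chain, stood at 250 to 408 CPM and 484 to 631 CPM (log2 0.64 ± 0.21, adjusted p = 0.174).

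G proteins and their regulators, through which Cxcr4 signals, were likewise without a call in edgeR. Of 33, 27 were tested over all protrusions and 28 in the attached comparison, with 0 calls and, at an unadjusted p under 0.05, 2 above 0 and 2 below, and 3 and 2. DESeq2 called 2 lower over all protrusions and limma-voom 1, and in attached protrusions each called 1 higher and 1 lower. The most abundant were Gnai2, an inhibitory alpha subunit, at 464 to 898 CPM in open neural tube and 454 to 817 CPM in protrusions (log2 −0.12 ± 0.23, edgeR adjusted p = 0.877), and the beta subunit Gnb1 at 393 to 566 and 435 to 524 CPM (−0.07 ± 0.18, adjusted p = 0.914). Their ranges overlapped widely.

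Heparan sulfate proteoglycans, which hold Cxcl12 at the cell surface and in the matrix, had 0 calls in edgeR among 25 tested in each comparison. At an unadjusted p under 0.05, 2 lay above 0 and 3 below over all protrusions, where DESeq2 called 1 higher and limma-voom 0. In attached protrusions 1 lay above 0 and 2 below, DESeq2 called 1 higher and 1 lower, and limma-voom 0. Agrn, the matrix proteoglycan agrin, stood at 179 to 604 CPM in open neural tube and 135 to 289 CPM in protrusions (log2 −0.96 ± 0.34, adjusted p = 0.194), and the glypican Gpc3 at 213 to 431 and 179 to 433 CPM (−0.06 ± 0.30, adjusted p = 0.957).

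Further ligands of the receptors had few reads apart from Hmgb1, a nuclear protein that can bind Cxcl12 once released. Mif, chosen after its values were seen, was at 0 in all open neural tubes and at most 0.287 CPM in protrusions. Hmgb1 stood at 150 to 231 CPM in open neural tube, 163 CPM in the separated protrusion and 86.9 to 117 CPM in the attached ones (log2 −1.0 ± 0.22 in attached protrusions, edgeR adjusted p = 0.0591). It was the only gene of its list with an unadjusted p under 0.05 in edgeR, and DESeq2 called it lower in both comparisons. Limma-voom called 1 gene of this list lower in attached protrusions and 0 over all protrusions. Cxcl11, the other chemokine that Cxcr7 binds, was at 0 in all libraries but the separated protrusion (0.327 CPM, under the floor there), and was chosen after its values were seen. Adm, adrenomedullin, a peptide that Cxcr7 also takes up, ranged from 0 to 3.36 CPM. Its receptor Calcrl ranged from 0 to 41.4 CPM, highest in open neural tube 13, and the co-receptor Ramp3 from 0 to 13.9 CPM. In the adrenomedullin receptor list 0 of 3 tested genes passed in edgeR, DESeq2 or limma-voom, and 0 had an unadjusted p under 0.05.

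Other chemokines and their receptors had few or no reads in these libraries. Of 36 other ligands 19 were at 0 in all 8 libraries, 2 could be tested over all protrusions and 0 passed. Of 22 other receptors 9 were at 0 in all libraries, 1 could be tested and 0 passed, and in both lists 0 had an unadjusted p under 0.05 in edgeR or a call by DESeq2 or limma-voom. The most abundant ligands were Ccl27a, at 4.30 to 16.5 CPM in open neural tube and 13 to 19.8 CPM in protrusions, and Ccl25, at 0.06 to 9.43 and 1.84 to 3.93 CPM. Ccl27a has near-identical copies, so its value is uncertain. The most abundant receptors were the scavenger Ackr1, listed as Darc, at 0 to 16.6 and 2.36 to 9 CPM, and Cxcr2, at 0 CPM in open neural tubes 9, 13 and 14, 12.2 CPM in open neural tube 10 and 0.24 to 2.29 CPM in protrusions. Open neural tube 10 was thus the library richest in Cxcr2 as well as in Cxcr4, and also in the co-receptor Ramp3 (13.9 CPM). On the estimate above it had the fewest independent tags of all libraries. A single tag stands for 5.85 CPM there, so these values rest on few tags.

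**Figure D5:**
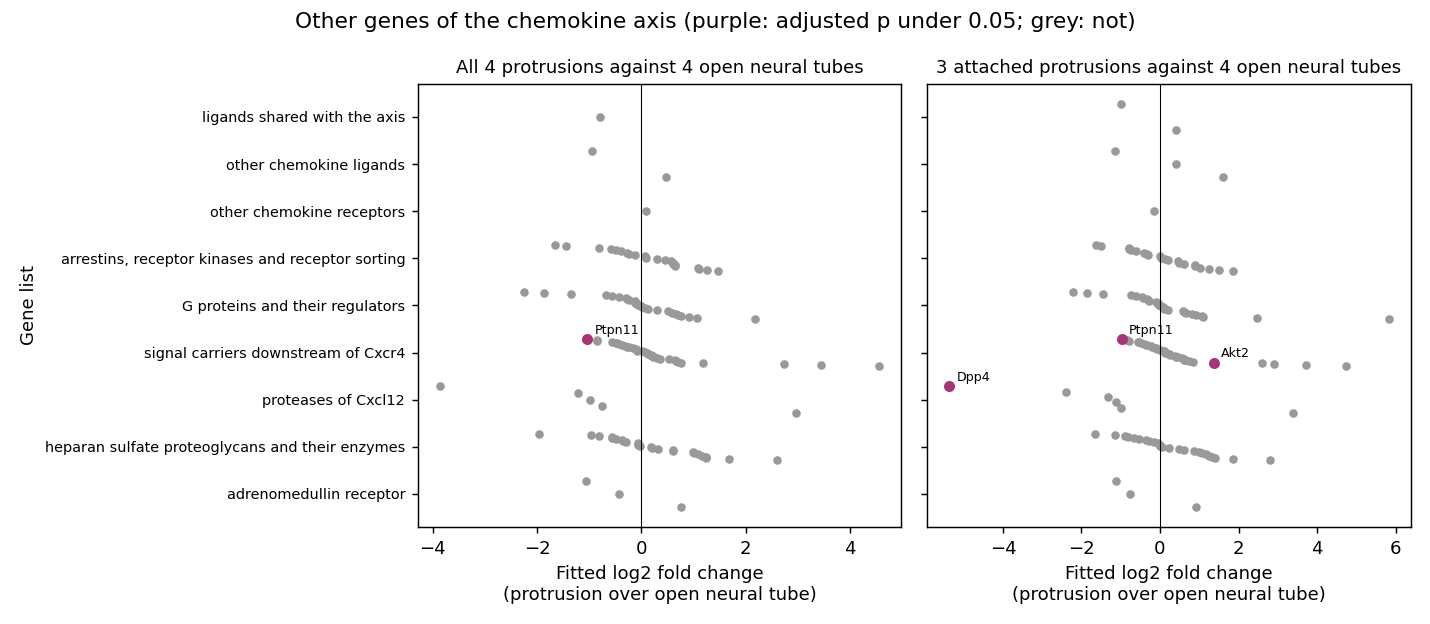
Fitted log2 fold change (x axis, protrusion over open neural tube) of each tested gene in the 9 lists of the axis (rows), for all 4 protrusions on the left and the 3 attached ones on the right; purple points passed an adjusted p of 0.05 in edgeR. Only Ptpn11 (left) and Ptpn11, Akt2 and Dpp4 (right) passed, and most points lie around 0.

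Markers of the tissues a dissection could hold were read in the same fits. In the attached comparison, 0.759% of all genes tested in edgeR passed as higher and 0.741% as lower. In attached protrusions 3 of 12 neural plate markers fell, among them Sox11 by 1.51 ± 0.19 (edgeR adjusted p = 0.0156) and Sox1, an early neural factor, by 3.78 ± 0.65 (adjusted p = 0.035), and 5 of 8 tested streak markers rose, among them Tbx6 by 8.59 ± 0.64 (adjusted p = 0.00117) and Cdx2 by 6.78 ± 0.62 (adjusted p = 0.00406). T, the most abundant streak marker, stood at 379 to 737 CPM in attached protrusions, 36.8 CPM in the separated one and 0.296 to 16.9 CPM in open neural tube. Of 8 tested endothelial markers 1 fell, Sox7, at 19.8 to 142 CPM in open neural tube, 33.4 CPM in the separated protrusion and 0.12 to 0.525 CPM in the attached ones (log2 −7.34 ± 1.03, adjusted p = 0.0178). Egfl7, the most abundant endothelial marker, stood at 48.7 to 143 CPM, 88.2 CPM and 35.8 to 43.5 CPM in the same order, a pattern in which the separated protrusion lay with the open neural tubes. Ednrb, an endothelin receptor of neural crest, fell by 6.29 ± 1.13 (adjusted p = 0.037) and Trh, an endoderm marker, rose by 9.04 ± 1.23 (adjusted p = 0.0163), the call for 1 of 6 and 1 of 8 tested markers. Their calls and those of Sox1 and Sox7 each ended without open neural tube 9, open neural tube 14, protrusion 3 or protrusion 4 (highest adjusted p 0.26), that of Sox11 ended without open neural tube 14 or protrusion 2 or 4 (highest 0.0699), and those of Tbx6 and Cdx2 held with each library left out. In the same comparison the blood, mesenchyme and surface ectoderm lists had 0 calls in edgeR and limma-voom. At an unadjusted p under 0.05 in edgeR they had 2 lower, 1 lower and 1 higher, and DESeq2 called 1 lower, 1 lower and 0. In this comparison DESeq2 called 1 neural plate marker higher and 6 lower, and limma-voom 1 and 1. Of the streak markers DESeq2 called 7 higher and limma-voom 8, with 0 lower in either. DESeq2 and limma-voom called 2 and 0 endothelial markers lower, and 1 and 1 of neural crest. Each called 2 endoderm and notochord markers higher. Over all genes tested, DESeq2 called 5.25% higher and 4.74% lower, and limma-voom 5.57% and 2.01%.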

How the data were processed

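Each SOLiD SAGE library was made from 7 to 12 ng of RNA from laser-cut cryosections, per the labels. The authors deposited 1 table per library with raw counts of reads per gene symbol. Per the submitters' processing notes the genome build is mm9. The mapping program and the tag and strand rules are not stated in the sources used here, and no coordinates are printed. Groups follow the source names and morphology labels; the open neural tube numbers come from the titles and those of protrusions are list order.

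Differences were fitted in R 4.3.3 with edgeR 4.0.16 on the whole table (filterByExpr, minimum count 10; TMM; robust quasi-likelihood F test, 2-sided; Benjamini-Hochberg over all genes tested, threshold 0.05). SE values were derived from the F statistic. CPM used library totals; log2 CPM used a prior count of 2. The common dispersion was 0.556. Alternatives were other scaling factors, no filter, limma-voom (limma 3.58.1), DESeq2 1.42.0 and each library left out. The fits were checked with simulated counts. These gave every gene the common dispersion, its mean level over all libraries and the read totals as depth. Only genes above a set mean level were changed. Neither dispersion gene by gene nor the loss of tags described above was simulated, so the call rates need not hold for these libraries. Changes of 2, 4, 8 and 16 times were called in 2%, 10%, 52% and 92% of cases when all protrusions were compared (10816 genes), and in 0%, 10%, 34% and 82% when attached ones were (10883 genes).

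The members and the lists were chosen with earlier results of these data known. Genes named by rule were the members and up to 4 genes past the threshold per axis list, or else its 2 most abundant. The rule also took the most abundant and up to 2 called markers per marker list, and the 5 most alike genes per member. Sox3, Cdh5, Tek, Kdr, Flt1 and Erg fall outside this rule and were named after their values were seen. Other genes outside it are said to be so where they appear. All 201 genes of the axis lists matched a symbol of the tables, some through an older symbol or a RefSeq synonym.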

Additional observations from a re-analysis of the deposited data

Results flagged for a closer look

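In 3 of the 6 groups of 4 values (3 genes in open neural tube and in protrusions), 1 library stood far above the other 3. Cxcr4 in open neural tube 10 was at 8.82 CPM, and the gap to the next library took up 0.959 of the group's range. Cxcl12 in open neural tube 13 was at 8.17 CPM, with a gap of 0.988 of the range, and Cxcl12 in protrusion 3 was at 9.97 CPM, with a gap of 0.915. Each gap was above Dixon's 95% critical value for 4 samples, which chance exceeds in about 1 in 20 groups. In both open neural tube cases the other 3 libraries were at or under 3 reads, so that a gap close to the whole range follows from a single library detecting the gene. The 8.82 CPM of Cxcr4 correspond to 1.51 independent tags and the 8.17 CPM of Cxcl12 to 2.8. These gaps are therefore a description and no test. The Cxcr7 groups stayed under the critical value.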

How the results depend on the processing

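Cxcr7 kept its direction under all alternatives run. Leaving out 1 library gave log2 fold changes of −2.82 to −2.01 over all protrusions and −3.08 to −2.30 in attached ones, and other settings −3.08 to −2.37 and −2.84 to −2.49. Cxcr4 moved with limma-voom, to 2.53 over all protrusions and 2.91 in attached ones, and with 1 library left out it ranged from −0.46 to 3.98 and from −0.10 to 4.23, highest in both cases without open neural tube 10. The number of axis genes that fell over all protrusions, 1 in the main fit, was 2 with upper-quartile factors and with no low-count filter, 3 with limma-voom, 6 with DESeq2 and 0 to 2 with 1 library left out. Leaving out open neural tube 13 together with the separated protrusion, an alternative added once the data had been seen, gave 3. The number that rose, 0, was 3 with DESeq2 and 0 to 1 with 1 library left out. In attached protrusions the 2 that fell became 4 with relative log expression factors, upper-quartile factors and limma-voom, 6 with DESeq2 and 0 to 3 with 1 library left out; the 1 that rose became 5 with limma-voom, 4 with DESeq2 and 0 to 1. The causes were not tested. No paired analysis was possible because the labels name no pairing. Whether libraries of the 2 groups share an embryo or litter is not known. Depth limits Cxcr4 and Cxcl12: 3 of 4 open neural tubes were at or under 3 reads for each.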

Other observations

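Some axis genes outside the naming rule had groups that did not overlap and were chosen after their values were seen; none passed the adjusted threshold in edgeR. Gng12, a gamma subunit of G proteins, stood at 128, 75.3, 95.8 and 96.8 CPM in open neural tubes 9, 10, 13 and 14 and at 50.4, 27.4, 45.0 and 45.8 CPM in protrusions 1 to 4. Gpc4, a glypican, stood at 0.176 to 7.26 CPM in open neural tube and 16 to 39.3 CPM in protrusions. Crkl, an adaptor of focal adhesions, was at 0 to 0.478 CPM and 1.68 to 8.92 CPM, so that in open neural tube it stayed under the CPM of a single independent tag as estimated above. Grk3, a receptor kinase, was at 5.65 to 9.87 CPM and 14.5 to 35.6 CPM, and Pak2, a kinase of the actin cytoskeleton, at 45.8 to 65.8 CPM and 74.5 to 103 CPM. In the same comparison groups that did not overlap were found for 8.84% of all genes tested with higher values in protrusions and for 4.55% with lower values, and for 12 and 4 of the 120 tested axis genes.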
